A study of Mus musculus with 12 samples.

Results

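The levels of 10 genes of matrix breakdown were followed through the cells of mammary tumours in mice. The genes are 7 matrix metalloproteinases (Mmp2, Mmp3, Mmp8, Mmp9, Mmp13, Mmp14 and Mmp19), the metalloproteinase inhibitor Timp1, the cysteine protease Ctsk and the acid phosphatase Acp5. They were chosen by name, out of 19369 genes in the larger of the deposited gene tables. A second kind of member was the single cell that held at least 1 unique molecular identifier (UMI, a tag that marks 1 captured RNA molecule) each of Ctsk, Acp5 and Mmp9, here called a triple-positive cell. There were 533 such cells among 112160.

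The tumours grew from 4T1, an established mammary carcinoma line of BALB/c mice that serves as a model of triple-negative breast cancer. Clones E, EM1, EM2, EM3 and M, each derived from a single 4T1 cell, and the parental 4T1 line were placed in the mammary fat pad of female BALB/c mice aged 9 to 11 weeks. The series describes the clones as epithelial, intermediate or mesenchymal in state, without giving the state of each clone in the sample labels. Every group was 1 tumour, from which 2 libraries were made: Total, of all dissociated cells, and CD45, of cells taken up by beads against the leukocyte antigen CD45. No other allele, drug or treatment is named for any group, and the 5 clones each stand for 1 clone and 1 mouse. Values below are CPM, the usual depth-scaled count, here the UMIs of a gene over all UMIs of the cells of an annotated class in a library. Their 95% intervals are exact Poisson intervals that cover counting error only, and no value has a replicate tumour.

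Matrix metalloproteinases are zinc enzymes that are made as inactive proenzymes and cut collagens and other matrix proteins once activated. Mmp8 and Mmp13 are collagenases, Mmp2 and Mmp9 gelatinases, Mmp3 a stromelysin that also activates other proenzymes, and Mmp14 a membrane-anchored enzyme that activates proMmp2, while Timp1 binds and blocks many of them. Ctsk, cathepsin K, degrades collagen at acid pH, Acp5 is tartrate-resistant acid phosphatase, and these 2 together with Mmp9 are the classical enzymes of the osteoclast, the multinucleated bone-resorbing cell of the myeloid lineage.

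Promoter sequences are shown for Mmp3 and Mmp13, which lie in the same gene cluster and were both lower in tumour cells of EM3 than of E, and for Ctsk and Acp5, which were high in the same few cells. They are RefSeq sequences of build GRCm38.p6, from 250 bases before to 50 after an annotated transcription start, and the submitters' processing notes name mm10, the same build. Capitals mark the AP-1 motif TGANTCA (Mmp3, Mmp13) or the NFAT-type motif GGAAAA on either strand, where it reads TTTTCC (Ctsk, Acp5). The windows are chr9:7445572-7445871 (plus strand) for Mmp3, chr9:7272264-7272563 (plus strand) for Mmp13, chr3:95498960-95499259 (plus strand) for Ctsk and chr9:22135697-22135996 (minus strand) for Acp5, the last being 1 of 3 Acp5 starts in the table.
Mmp3: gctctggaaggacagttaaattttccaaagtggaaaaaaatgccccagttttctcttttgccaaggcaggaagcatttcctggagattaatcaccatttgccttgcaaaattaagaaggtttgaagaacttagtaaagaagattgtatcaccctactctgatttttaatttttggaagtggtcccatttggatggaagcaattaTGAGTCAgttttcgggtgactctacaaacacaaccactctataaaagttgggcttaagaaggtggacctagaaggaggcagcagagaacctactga
Mmp13: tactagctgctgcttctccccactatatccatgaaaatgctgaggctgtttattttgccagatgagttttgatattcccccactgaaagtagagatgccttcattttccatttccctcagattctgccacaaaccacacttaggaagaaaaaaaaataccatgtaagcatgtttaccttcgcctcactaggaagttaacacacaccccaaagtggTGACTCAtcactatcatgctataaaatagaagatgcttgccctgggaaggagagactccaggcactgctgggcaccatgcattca
Ctsk: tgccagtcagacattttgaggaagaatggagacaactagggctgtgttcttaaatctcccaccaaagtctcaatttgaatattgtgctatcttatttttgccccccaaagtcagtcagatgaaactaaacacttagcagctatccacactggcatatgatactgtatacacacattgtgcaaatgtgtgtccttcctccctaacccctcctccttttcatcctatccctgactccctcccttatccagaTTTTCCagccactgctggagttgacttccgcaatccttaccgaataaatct
Acp5: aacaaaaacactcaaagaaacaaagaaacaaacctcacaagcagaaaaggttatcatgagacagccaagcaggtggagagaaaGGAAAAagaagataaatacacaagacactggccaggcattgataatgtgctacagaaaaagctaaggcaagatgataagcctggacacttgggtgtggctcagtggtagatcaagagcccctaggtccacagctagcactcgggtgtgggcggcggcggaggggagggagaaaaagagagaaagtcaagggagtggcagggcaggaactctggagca
The AP-1 motif began 46 bases before the start in Mmp3 and 35 bases before it in Mmp13, and 7.81% of 32851 promoter windows held it. It was in none of the windows of Mmp8, Mmp14, Timp1, Ctsk or Acp5. The NFAT-type motif began 1 base before the start in Ctsk and 167 bases before it in Acp5, and 23.4% of all windows held it. The windows of the other 2 Acp5 starts did not hold it. It also stood in the windows of Mmp3, Mmp13 and Mmp14. These matches are letters in a window and were not measured as binding. Mmp2, Mmp9 and Mmp19 are named only. The genes lie at chr9:7272514-7283333 (Mmp13), chr9:7445822-7455975 (Mmp3), chr9:7558429-7568486 (Mmp8), chr9:22126727-22135746 (Acp5), chr2:164940326-164955850 (Mmp9), chr3:95499210-95509387 (Ctsk), chr8:92827290-92853421 (Mmp2), chr10:128790910-128800827 (Mmp19), chr14:54431598-54442456 (Mmp14) and chrX:20870166-20874737 (Timp1).

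The 12 libraries held 28083101 to 122055131 UMIs each, with a median of 1557 to 10042 UMIs per cell. The leading part of the cell barcode, read as its droplet part, was shared by 12.2% to 19.1% of the smaller library in 14 pairs. In the other 52 pairs of libraries it was shared by 0.686% to 1.91%. No whole barcode was shared in any of the 14 pairs. The labels give no droplet run. The pairs with much sharing were those among the libraries of E and EM3, of EM1 and EM2, of M, and of the parental tumour, and these sets are called barcode groups here. For every difference between tumours of unlike barcode groups, such as E and M, barcode group and clone cannot be told apart. The parental tumour was alone in its group, so this holds for it against every other tumour. The annotated classes carried their markers: 7 fibroblast markers summed to 71408 to 158027 CPM in fibroblasts, and granulocyte markers to 112270 to 205087 CPM in granulocytes. In T cells, which are not known sources of most of these genes, several members were above 0, and these levels are given below beside the results they touch.

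Fibroblasts were the class with the highest levels of Mmp2, Timp1 and Ctsk in the Total libraries, although only 52 to 262 cells per tumour were annotated as such. Mmp2 was at 1447 CPM in E, 2593, 2595 and 2167 in EM1, EM2 and EM3, and 2297 and 1571 in M and the parental tumour. No other class of the Total libraries exceeded 51.0 CPM of Mmp2 in any tumour, and no class of the CD45 libraries exceeded 22.2. Fibroblasts were at most 2.49% of the cells of a Total library and held 60.7% to 92.2% of its Mmp2 UMIs.

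Timp1 in fibroblasts was at 1077 CPM in E, 1839, 2359 and 2445 in EM1, EM2 and EM3, and 1992 and 3968 in M and the parental tumour. The parental tumour was highest and E lowest, and the counting intervals of both (3906 to 4030 and 1001 to 1156) lay apart from all others. Tumour cells had 140 to 361 CPM. In T and NK cells of the Total libraries Timp1 ran from 29.6 CPM in E to 164 in the parental tumour, which was also the highest tumour there.

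Ctsk in fibroblasts was at 414 CPM in E, 854, 1079 and 981 in EM1, EM2 and EM3, and 813 and 682 in M and the parental tumour. E was again lowest, with an interval of 367 to 464 that met no other. Mmp14 had the same lowest tumour among fibroblasts, at 594 CPM in E, 839, 1044 and 1020 in EM1, EM2 and EM3, and 937 and 898 in M and the parental tumour. Within the other 5 tumours, neighbours such as EM2 and EM3 overlapped for both genes.

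Mmp3, the stromelysin, was measured in both fibroblasts and tumour cells. Its fibroblast level was 491 CPM in E, 578, 384 and 258 in EM1, EM2 and EM3, and 499 and 253 in M and the parental tumour. In tumour cells it was at 84.1 CPM in E, 215, 143 and 31.6 in EM1, EM2 and EM3, and 60.4 and 321 in M and the parental tumour. The 2 classes thus ordered the tumours differently, since the parental tumour was lowest in fibroblasts and highest in tumour cells. T and NK cells of the same libraries held 11.5, 26.7, 28.3, 4.66, 7.86 and 114 CPM in the same order of tumours. The parental tumour was highest and EM3 and M lowest there, as in tumour cells, and the part of free RNA in these values was not tested. In CD45 libraries Mmp3 was at most 1.73 CPM in any class.

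Mmp13, a collagenase, was spread over fibroblasts, tumour cells and macrophages. Fibroblasts had 249 CPM in E, 522, 299 and 411 in EM1, EM2 and EM3, and 197 and 173 in M and the parental tumour. A UMI of it was found in 9.52% to 22.2% of fibroblasts, against 67.9% to 84.9% for Mmp2, so that a minority of fibroblasts carried its level. Tumour cells had 181 CPM in E, 307, 63.0 and 6.87 in EM1, EM2 and EM3, and 8.56 and 111 in M and the parental tumour. EM3 and M were the 2 low tumours, and in both the tumour cells stood no higher than the T and NK cells of the same library, at 10.5 and 9.25 CPM. Macrophages of the Total libraries differed less, between 114 CPM in EM3 and 244 in EM1, and those of the CD45 libraries lay between 119 in EM3 and 257 in EM1.

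Mmp14, the membrane-anchored activator, was measured in many classes. Tumour cells had 282 CPM in E, 624, 505 and 441 in EM1, EM2 and EM3, and 717 and 468 in M and the parental tumour, with a UMI in 71.0% to 97.1% of cells. Macrophages of the CD45 libraries had 281 CPM in E, 598, 451 and 282 in EM1, EM2 and EM3, and 535 and 355 in M and the parental tumour. E and EM3 were the low tumours in macrophages, and their intervals (276 to 287 and 277 to 288) overlapped. Endothelial cells, the lining of blood vessels, had 248 to 491 CPM. T and NK cells had 41.5 to 174 CPM in the Total libraries and T cells 21.3 to 44.8 in the CD45 libraries.

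**Figure D1:**
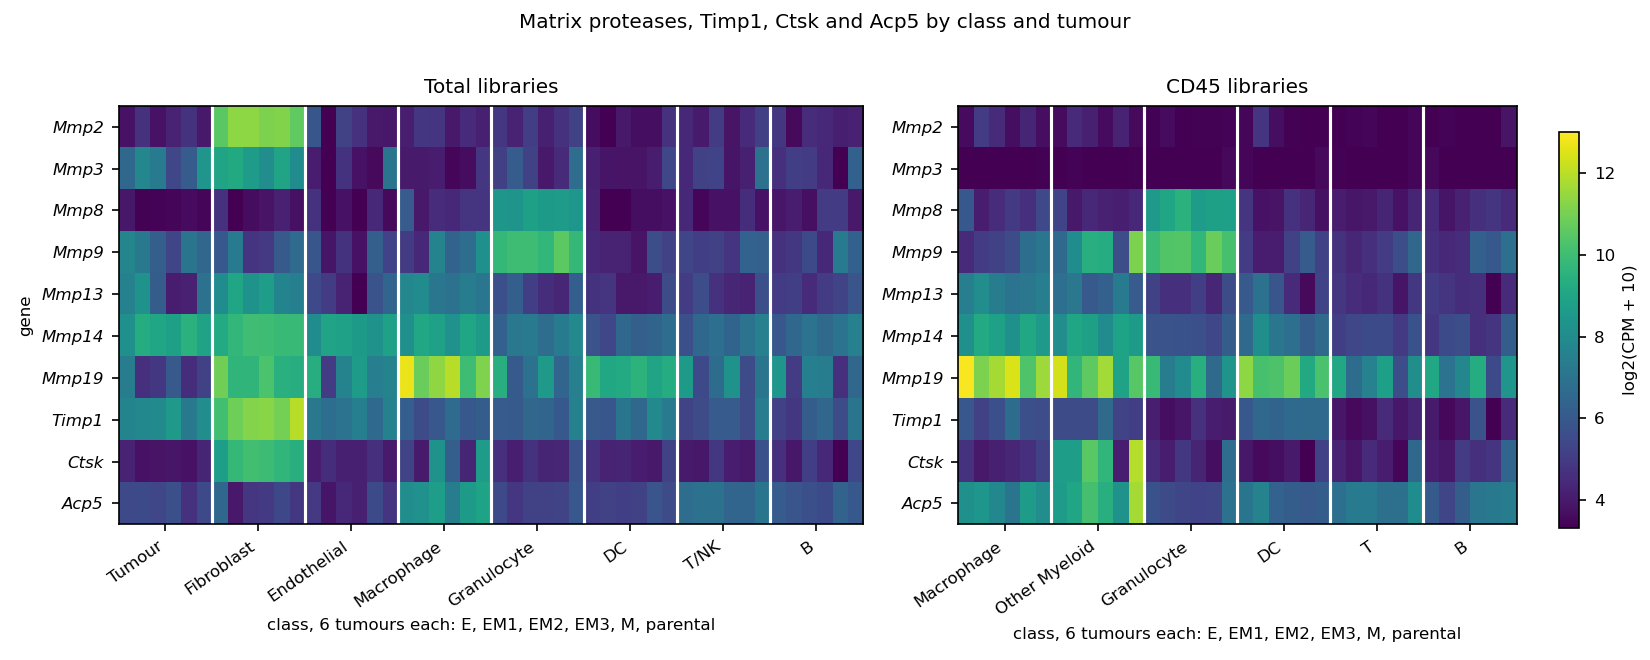
Levels of the 10 genes (rows) in the annotated classes (column blocks, in each the 6 tumours in the order E, EM1, EM2, EM3, M and parental) of the Total and CD45 libraries, as log2(CPM + 10) of counts summed over a class. Among the classes of the Total libraries Mmp2, Timp1 and Ctsk are brightest in fibroblasts, Mmp8 and Mmp9 in granulocytes, and Mmp19 in macrophages; in the Other Myeloid class of the CD45 libraries Mmp9, Ctsk and Acp5 are brightest in the parental tumour.

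Granulocytes, mostly neutrophils, carried the highest class level of Mmp8, which is stored in neutrophil granules. In the CD45 libraries it was at 358 CPM in E, 507, 718 and 400.5 in EM1, EM2 and EM3, and 447 and 437 in M and the parental tumour. The Total libraries gave 314 CPM in EM1 and 445 in EM2. With only cells of at least 650 genes kept, the level in the CD45 libraries came to 972 CPM in EM1, 1500 in EM2 and 936 in the parental tumour. A UMI was found in 15.5% to 22.2% of these granulocytes, whose median depth was only 690 to 1222 UMIs. Macrophages held 53.4 CPM of Mmp8 in E and 7.29 to 34.4 in the other 5 tumours. In the CD45 library of E macrophages held 56.7% of the Mmp8 UMIs and granulocytes 36.8%, against 15.2% and 77.3% in EM1.

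Mmp9 was also highest in granulocytes, except that Other Myeloid cells of the parental tumour held more. Granulocytes of the CD45 libraries had 952 CPM in E, 1304, 1354 and 850 in EM1, EM2 and EM3, and 1736 and 1165 in M and the parental tumour, and those of the Total libraries 870, 1000, 1012, 829, 1516 and 862. M was highest in both. Of the 15 pairs of tumours, 10 had intervals that lay apart in both libraries, and all 10 had the same order in both. The 2 libraries of a tumour come from the same mouse and are not replicates of a clone. Tumour cells had 200 CPM of Mmp9 in E, 141, 66.8 and 30.5 in EM1, EM2 and EM3, and 121 and 82.6 in M and the parental tumour.

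Macrophages carried Mmp19 and Acp5. Mmp19, a metalloproteinase that cuts basement-membrane proteins, was at 7581 CPM in E, 2186, 3325 and 5640 in EM1, EM2 and EM3, and 1273 and 3022 in M and the parental tumour in macrophages of the CD45 libraries. The Total libraries gave 6797, 1743, 2712, 4006, 1011 and 2217 CPM. All 15 pairs of tumours had intervals that lay apart in both libraries, and all 15 had the same order. E was highest, EM3 next and M lowest. Cells annotated T/Myeloid Hybrid, at most 61 per tumour, held more Mmp19 than macrophages in EM1 (3344 CPM) and M (1680 CPM). The same 2 tumours led in fibroblasts, at 1908 CPM in E and 1224 in EM3 against 652 to 798 in the other 4, and in granulocytes, dendritic cells and tumour cells.

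In T cells E and EM3 were again highest and M lowest, with 548 CPM of Mmp19 in E, 97.2, 188 and 430 in EM1, EM2 and EM3, and 38.9 and 264 in M and the parental tumour, and a UMI in 64.1% of T cells of E against 5.70% in M. Their median depths were 1713 and 1396.5 UMIs, against 6024 and 7667 in macrophages. The parental tumour was above EM2 in T cells and below it in macrophages. The part of free RNA in the levels of Mmp19 outside macrophages was not tested. E and EM3, the 2 high tumours, were also the 2 tumours of 1 barcode group, so that for them against the rest barcode group and clone cannot be told apart.

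**Figure D2:**
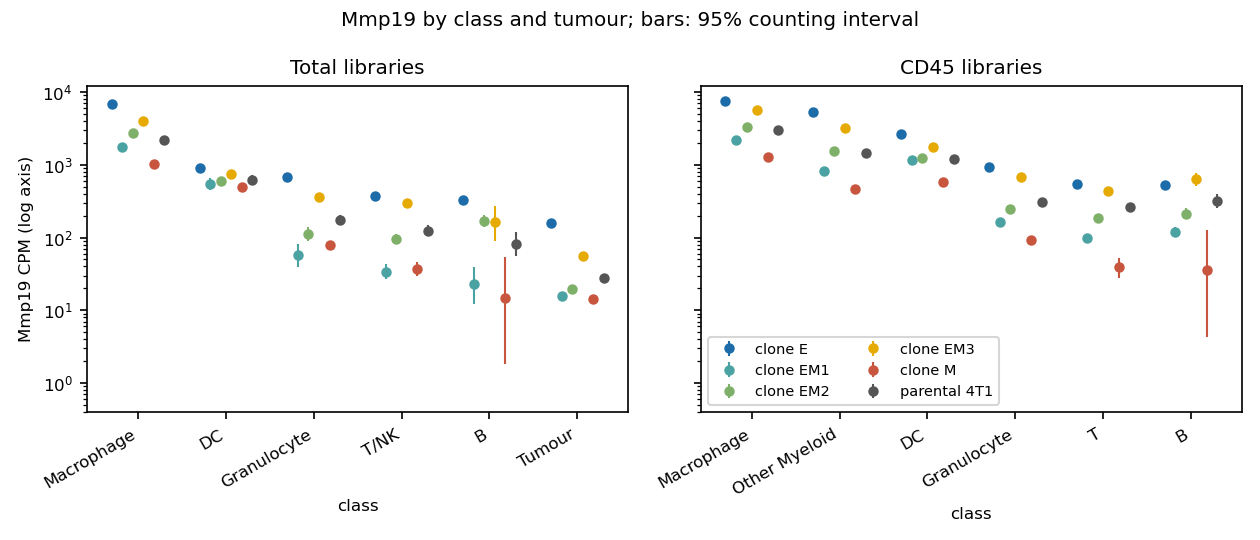
Mmp19 in CPM (log axis) by class and tumour, in Total (left) and CD45 libraries (right); points are sums over a class and bars 95% exact Poisson intervals. Clone E is highest and clone M lowest in macrophages of both libraries, and E and EM3 are also above the other tumours in granulocytes and in T cells.

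Acp5 in macrophages of the CD45 libraries was at 281 CPM in E, 326, 217 and 120 in EM1, EM2 and EM3, and 393 and 260 in M and the parental tumour. Macrophages of the Total libraries, whose annotation has no Other Myeloid class, had 255, 288, 421, 156, 373 and 475 CPM in the same order. Of the 15 pairs of tumours, only 9 had the same order in both libraries, although all 15 lay apart in each. T cells held 105 to 248 CPM of Acp5 and T and NK cells of the Total libraries 79.5 to 127.

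Clone M was then compared with clone E, and EM3 with E, the latter pair being of 1 barcode group. A gene counted as different if its log2((CPM + 10) ratio) was at least 1 either way, that is 2-fold, among genes with at least 50 CPM in either tumour. The 2 comparisons share the E tumour. With 1 tumour a group these are descriptions with no replicate check.

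In tumour cells, Mmp13 differed most of the members. It was 10.3-fold lower in M (log2 ratio -3.36) and 11.3-fold lower in EM3 (-3.50) than in E. Mmp19 was lower by 6.90-fold in M and 2.59-fold in EM3, where it was within 2-fold with TMM scaling (log2 -0.98). Its level in tumour cells ran from 14.3 CPM in M to 158 in E. T and NK cells of the Total libraries held 34.0 CPM of Mmp19 in EM1 to 373 in E, and B cells 14.9 in M to 331 in E. The part of free RNA in the Mmp19 differences of tumour cells was not tested. Mmp9 was 5.19-fold lower in EM3 (121 and 30.5 CPM in M and EM3 against 200 in E) and within 2-fold in M. Mmp14 was 2.49-fold higher in M and 1.54-fold higher in EM3, the latter past 2-fold with TMM scaling (log2 1.03). Mmp3 was 2.26-fold lower in EM3, but within 2-fold with TMM (log2 -0.81) or median-of-ratios scaling (-0.92). Timp1 was within 2-fold in both, at log2 -0.47 in M and 0.85 in EM3, the latter past 2-fold with TMM (1.25) or median-of-ratios scaling (1.14). In all, 3 of 6 members with at least 50 CPM differed in M, where 14.7% of 5525 genes did, and 4 of 6 in EM3, where 10.7% of 5308 genes did. Among all genes that differed, 445 were lower and 365 higher in M than in E, and 360 lower and 206 higher in EM3.

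**Figure D3:**
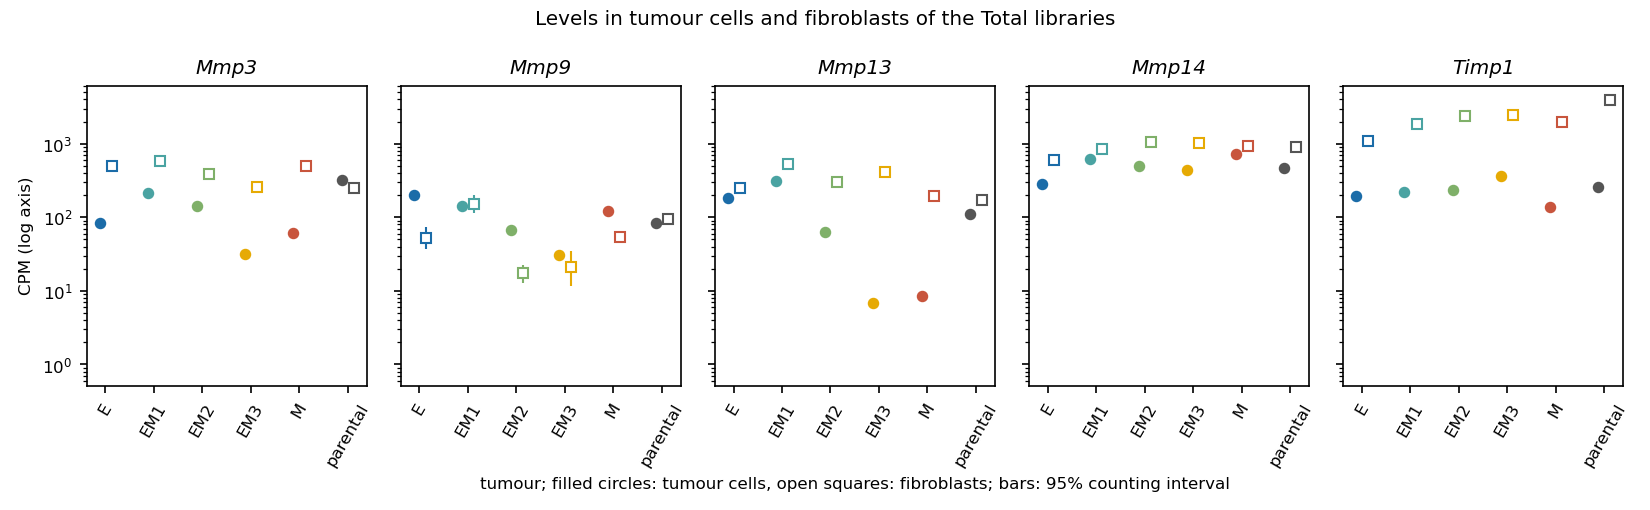
Mmp3, Mmp9, Mmp13, Mmp14 and Timp1 in CPM (log axis) in tumour cells (filled circles) and fibroblasts (open squares) of the 6 Total libraries; bars are 95% exact Poisson intervals, hidden by the symbols where narrow. Mmp13 in tumour cells is at 6.87 CPM in EM3 and 8.56 in M, below the 63.0 or more of the other 4 tumours, while in fibroblasts it stays between 173 and 522.

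Other enzymes of the family in tumour cells were read from a list of 17 metalloproteinases and inhibitors, of which 4 had at least 50 CPM in E or the tumour set against it. In both comparisons 3 of the 4, Mmp10, Mmp12 and Mmp25, were lower than in E, and the median log2 ratio of the 4 was -1.50 in M and -1.47 in EM3, against 0.11 and 0.02 over all genes. Mmp25 in M came within 2-fold with TMM scaling (log2 -0.95), and Mmp12 in EM3 with TMM (-0.75) or median-of-ratios scaling (-0.85). Timp2, the fourth, was within 2-fold in both and past it, as higher, with either scaling (1.29 and 1.11 in M, 1.32 and 1.21 in EM3). In the same tumour cells 6 granulocyte markers summed to 1113 CPM in E, 230 in EM3 and 506 in M and 6 macrophage markers to 299.6, 195 and 106 CPM, with none at 0. These sums were lower in EM3 and M than in E, as were Mmp9, Mmp12, Mmp19 and Mmp25, and their part in the differences was not tested. Mmp10, a stromelysin close to Mmp3, was at 69.7 CPM in E, 81.4, 45.7 and 12.1 in EM1, EM2 and EM3, and 14.4 and 104 in M and the parental tumour. Like Mmp13, it was lowest in EM3 and M. Of 11 partners of collagen breakdown 8 were measured, and 4 of them were lower in M (Col1a1, Col1a2, Fn1 and Plat), with none higher. Col1a1, Col1a2, Col3a1, Plau and Plat were lower in EM3. Col1a1 in M, and Plat in both, were within 2-fold with either scaling (log2 between -0.98 and -0.76). Of 9 cathepsins and their inhibitors, Ctsc was lower in both and Ctss in M, and none was higher. With either scaling Ctsc in EM3 was within 2-fold (-0.87 and -0.98), and Ctsl was higher in both (1.10 to 1.36), as was Ctsb in M with TMM (1.01).

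In fibroblasts, Timp1 and Ctsk were higher in EM3 than in E, by 2.26-fold and 2.34-fold. In M they were higher by 1.84-fold and 1.94-fold, values that passed 2-fold with TMM scaling (log2 1.20 and 1.27). Mmp19 was 2.72-fold lower in M. Acp5, at 83.0 CPM in fibroblasts of E, was 2.18-fold lower in M, or log2 -0.85 with TMM scaling, and was lower in EM3 by a log2 ratio of -1.58. Mmp9 was 2.03-fold lower in EM3, from 21.0 CPM against 53.0, and within 2-fold with TMM scaling (log2 -0.88). The 6 macrophage markers, none of them at 0, summed to 1755 CPM in fibroblasts of E, 1337 in EM3 and 1028 in M, and Csf1r among them was at 195, 111 and 89.5 CPM. Ctss, a cathepsin of myeloid cells, was at 1405, 726 and 295 CPM there. These levels, like those of Acp5 and Mmp19, were lower in EM3 and M than in E, and their part in the differences was not tested. Among E, EM3 and M, the macrophage markers and Ctss were lowest in M and Acp5 was lowest in EM3. Mmp9 was at 54.4 CPM in M and 53.0 in E. Mmp2 and its activator Mmp14 were 1.49-fold to 1.70-fold higher in both, within the 2-fold limit. Past it were 2 of 9 members in M, where 10.1% of 4516 genes passed, and 4 of 9 in EM3, where 7.6% of 4590 genes passed. Among all genes that passed, 368 were lower and 89 higher in M than in E, and 265 lower and 84 higher in EM3. Of the other metalloproteinases, Mmp11 was higher and Mmp12 lower in both, 2 of 6 measured. Mmp10 in M passed as higher with TMM scaling (log2 1.04).

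Macrophages of the CD45 libraries differed in 3 of 7 members between M and E, where 6.84% of 4210 genes did. Mmp9 was 4.99-fold higher in M (104 against 12.8 CPM), Mmp19 5.92-fold lower and Mmp8 2.47-fold lower. Levels of Mmp9 in T cells of the same libraries were 39.9 CPM in M and 16.9 in E, and granulocytes of M had the highest Mmp9 of all tumours. Between EM3 and E, 2 of 6 members differed, where 1.28% of 3819 genes did: Acp5 was 2.23-fold lower and Mmp8 2.03-fold lower. In the Total libraries the Acp5 difference came to log2 -0.68. Mmp14 was 1.87-fold higher in M than in E and 1.00-fold of E in EM3. Of the other metalloproteinases and inhibitors, 2 were measured, and Mmp12 was lower in M and Timp2 higher (log2 1.03), the latter within 2-fold with either scaling (0.75 and 0.74). Neither passed 2-fold in EM3, though Mmp12 did, as lower, with either scaling (-1.04 and -1.05). Mmp12, the macrophage elastase, was at 1391 CPM in E, 905, 700 and 712 in EM1, EM2 and EM3, and 495 and 1198 in M and the parental tumour.

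Granulocytes of the CD45 libraries had 3 members with at least 50 CPM in E or the tumour set against it, Mmp8, Mmp9 and Mmp19. Mmp19 alone differed between M and E, 9.30-fold lower in M, where 4.41% of 2995 genes differed, 100 of them lower and 32 higher in M. No member differed between EM3 and E, where 0.721% of 2913 genes did. Mmp9 was 1.81-fold higher in M. Of 9 neutrophil granule genes 6 were measured, and Camp, Ltf and Ngp were lower in M, whereas none passed 2-fold in EM3.

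Ctsk, Acp5 and Mmp9 came together in the Other Myeloid class of the CD45 libraries, which held 273 to 526 cells per tumour. Ctsk there was at 410 CPM in E, 404, 1475 and 809 in EM1, EM2 and EM3, and 6.98 and 3884 in M and the parental tumour. Acp5 was at 393, 526, 1114, 673, 306 and 3332 CPM, and Mmp9 at 89.1, 248, 664, 622, 38.7 and 2191, in the same order of tumours. All 3 were highest in the parental tumour and lowest in M. Ctsk in macrophages of the same libraries was only 5.72 to 26.4 CPM, and in T cells 0.927 to 84.2 CPM. The parental tumour was the highest there, and its granulocytes held 98.8 CPM against 2.96 to 19.9 in the other 5, so that Ctsk was also higher in these classes of the parental tumour; the part of free RNA was not tested.

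Few cells carried most of the Ctsk and Mmp9 levels, except in M. Acp5 was spread more widely, with a UMI in 27.4% to 58.6% of Other Myeloid cells. Among macrophages and Other Myeloid cells together, cells with at least 5 Ctsk UMIs numbered 17 in E, 8, 22 and 14 in EM1, EM2 and EM3, and 9 and 47 in M and the parental tumour. They held 75.1%, 91.5%, 96.2%, 89.2%, 32.3% and 94.3% of the Ctsk UMIs of these classes. Without cells that had at least 2 UMIs of all 3 genes, Mmp9 in Other Myeloid cells came to 7.39 CPM in E, 7.22, 8.87 and 21.7 in EM1, EM2 and EM3, and 38.7 and 73.6 in M and the parental tumour. The cells left out numbered 3 in E, 4, 21 and 7 in EM1, EM2 and EM3 and 33 in the parental tumour, and M had none. Since Mmp9 was among the genes that chose them, these levels only describe how its UMIs were spread over cells.

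Triple-positive cells were counted in the CD45 libraries as a share of macrophages and Other Myeloid cells, with exact Clopper-Pearson intervals. The share was 0.383% (0.237 to 0.585) in E, 0.186% (0.0748 to 0.383), 0.517% (0.338 to 0.757) and 0.345% (0.208 to 0.539) in EM1, EM2 and EM3, and 0.724% (0.443 to 1.12) and 2.04% (1.61 to 2.54) in M and the parental tumour. Only the parental tumour lay apart from all others, and it was also a barcode group of its own. Among T cells of the 6 CD45 libraries, taken as cells that should lack Ctsk, 1 cell was triple-positive, in the parental tumour (0.126% of 794 T cells), and the counts of 0 allow shares of up to 0.0992% to 0.439% of T cells in the other 5. T cells were shallower, with a median of 979 to 1721 UMIs against 5260 to 7421 in the myeloid cells. After each cell was thinned to 1500 UMIs, which left 2633 to 5337 myeloid cells per tumour, the share was 0.0749% in E, 0.112%, 0.390% and 0.172% in EM1, EM2 and EM3, and 0.114% and 0.884% in M and the parental tumour. That is 3 cells in M against 20 before thinning, and 32 against 77 in the parental tumour.

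Triple-positive cells were set in 2 kinds by annotated class, and the kinds differed in their median Ctsk count. Those annotated Other Myeloid numbered 7 in E, 5, 21 and 9 in EM1, EM2 and EM3, and 0 and 37 in M and the parental tumour, and their median Ctsk count was 114, 181, 246, 315 and 203 UMIs in the tumours that had them. Those annotated as macrophages numbered 14, 2, 5, 10, 20 and 40, with a median of 1 to 1.5 Ctsk UMIs. Single cells overlapped: an Other Myeloid cell of E held 1 Ctsk UMI, and a macrophage of the parental tumour held 59. All triple-positive cells of M in the CD45 library were of the second kind, and 0 of 273 Other Myeloid cells allows a share of up to 1.10%. At 10.6% (7.55 to 14.3) of Other Myeloid cells, the parental tumour had the highest share of the first kind, against 1.11% to 4.43% in E, EM1, EM2 and EM3. In the Total libraries, where 350 of 58676 cells were triple-positive, the tumour class of the parental library held 90 of them with a median of 1 Ctsk UMI, in cells with a median of 20044 UMIs. Single cells of that class held 100, 100 and 23 Ctsk UMIs, and cells annotated Unknown in that library up to 283. Fibroblasts of the Total libraries held 0 to 15 per tumour, with up to 16 Ctsk UMIs by median and 1 or 1.5 UMIs of Acp5.

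**Figure D4:**
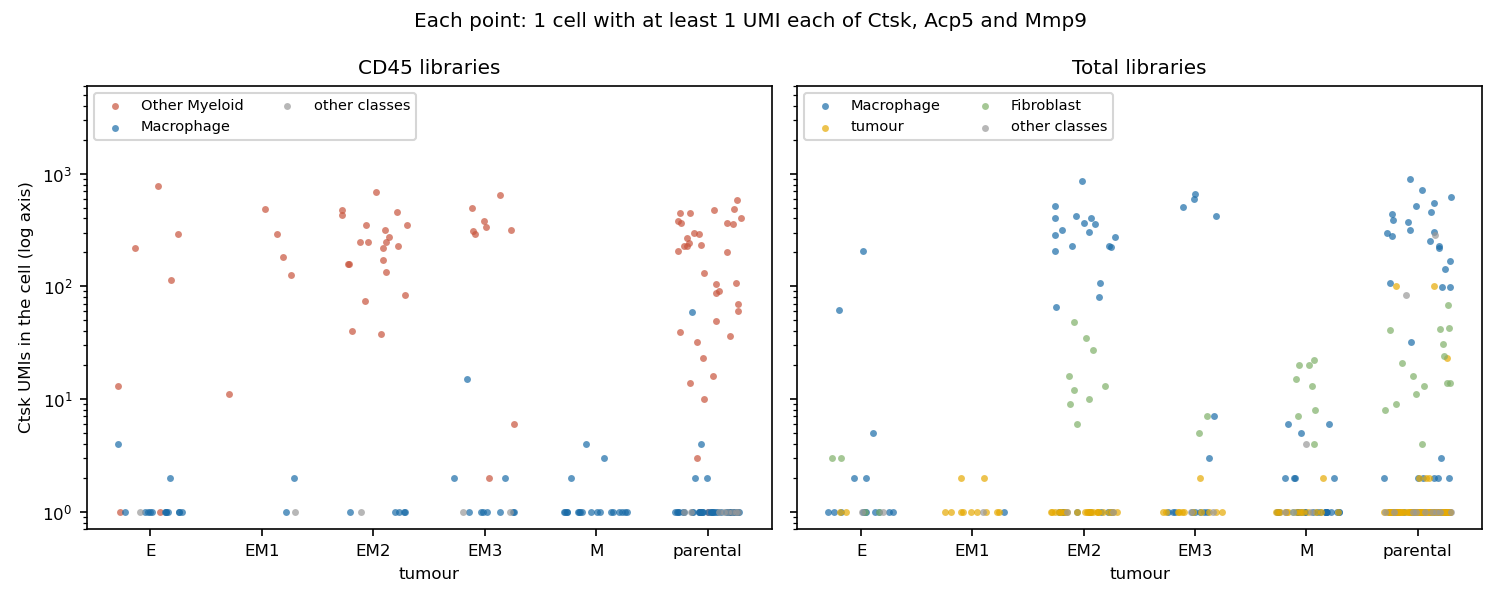
Ctsk UMIs (log axis) in every triple-positive cell, by tumour and annotated class, in CD45 (left) and Total libraries (right); points are spread sideways for visibility. In the CD45 libraries most Other Myeloid cells lie above 10 UMIs and most macrophages at 1, and M has no Other Myeloid cell.

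Osteoclast genes were measured in the triple-positive Other Myeloid cells. Atp6v0d2, a proton pump subunit needed for osteoclast fusion, was at 764 CPM in E, 968, 1042 and 826 in EM1, EM2 and EM3 and 1065 in the parental tumour, against 2.37 to 22.7 in the other cells of the class. Nfatc1, the master transcription factor of osteoclasts, was at 1561, 1770, 2405, 1547 and 1609 CPM, against 94.5 to 167 in the rest. Ocstamp, a membrane protein of fusing osteoclasts, was at 178 to 690 CPM, against 10.6 to 32.1. Itgb3, the vitronectin receptor subunit, was at 136 to 339 CPM against 15.7 to 51.4. Calcr, the calcitonin receptor of mature osteoclasts, had no UMI in any of these cells, but had 2 UMIs in the 26 triple-positive macrophages of EM2 and 3 in the 14 of EM3 in the Total libraries. Oscar had none in EM1 and 31.4 to 253 CPM in the other 4.

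Osteoclast markers were also counted per cell. At least 2 of the 5 osteoclast markers Atp6v0d2, Ocstamp, Dcstamp, Oscar and Calcr had a UMI in 3 of 7 triple-positive Other Myeloid cells of E, 5 of 5 in EM1, 21 of 21 in EM2, 6 of 9 in EM3 and 25 of 37 in the parental tumour. The share among Other Myeloid cells that were not triple-positive was 1.10% to 7.43%. These shares were not matched on depth. Over macrophages and Other Myeloid cells together, the median depth per tumour was 7180 to 10244 UMIs in triple-positive cells and 5244 to 7404 in the others. Among triple-positive macrophages of the CD45 libraries it was 4 of 14 in E, 0 of 2 in EM1, 0 of 5 in EM2, 0 of 10 in EM3, 1 of 20 in M and 3 of 40 in the parental tumour. The exact intervals of the 2 kinds lay apart in EM2 and the parental tumour and overlapped in E, EM1 and EM3. They cover counting error only. The classes come from clustering of the same cells, so this describes the cells and tests no difference between classes. In the Total libraries, which have no Other Myeloid class, it was 0 of 15 triple-positive macrophages in E, 0 of 1 in EM1, 15 of 26 in EM2, 4 of 14 in EM3, 1 of 27 in M and 21 of 51 in the parental tumour. In the parental Total library it was also 3 of 90 triple-positive cells of the tumour class, 2 of 8 annotated Unknown and 1 of 15 fibroblasts.

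Among the other members, Mmp14 was high in these cells, at 696 CPM in E, 1161, 1251 and 1150 in EM1, EM2 and EM3 and 1006 in the parental tumour. The rest of the class had 226 to 510 CPM. Mmp19 was low, at 1900, 470, 171, 397 and 647 CPM in the same tumours, against 5418, 819.5, 1614, 3271 and 1562 in the rest of the class. Mmp13 was low too, at 0 to 44.5 CPM against 58.7 to 144, the highest value being that of M, which held no such cell. The Mmp13 levels of the triple-positive cells rest on few UMIs, and no interval is given for them. These triple-positive cells had, in every tumour that held them, more Mmp14 and less Mmp19 and Mmp13 than their class.

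Triple-positive cells of both classes were then tested against 5 times as many other cells of the same class, library and depth, with the tumour as a block, over 6 tumours. In the parental tumour the median depth was 7792 UMIs in the triple-positive and 8692 in the comparison cells. In edgeR's quasi-likelihood test with Benjamini-Hochberg adjustment, 431 of 6325 genes (6.81%) were higher and 261 (4.13%) lower at an adjusted p under 0.05. Ctsk, Acp5 and Mmp9 chose the cells and were left out. Leaving out 1 tumour at a time gave from 119 higher and 41 lower without the parental tumour to 607 and 573 without M, with 312 and 150 without EM1, 268 and 142 without EM2, and 225 and 107 without EM3. In the Total libraries, over 5 tumours, 146 genes were higher and 54 lower.

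Of a list of 15 osteoclast genes, 11 passed the filter on low counts, which a gene can pass through the triple-positive cells alone. These 11 were higher, a count that the filter helps to fix and that is given as a description. Atp6v0d2 was higher by 5.46 ± 0.60 (SE, adjusted p = 0.00033) and Ocstamp by 3.74 ± 0.35 (adjusted p = 0.00014), both in 6 of 6 tumours. Nfatc1 was higher by 2.53 ± 0.41 and Tnfrsf11a, which encodes RANK, the receptor of the osteoclast-inducing cytokine, by 1.55 ± 0.29, both in 5 of 6 tumours. Mitf, Snx10, Src, Dcstamp, Tcirg1, Clcn7 and Ostm1 were the other 7. Ctsk, Acp5 and Mmp9 are themselves osteoclast enzymes, so the list is related to the choice of the cells. Dcstamp (adjusted p = 0.036) and Ostm1 (0.033) missed the threshold without the parental tumour (0.15 and 0.15), as did Tnfrsf11a, Clcn7 and Src (0.058, 0.062 and 0.066), while Atp6v0d2 and Mitf were then too low to be tested. In the Total libraries 5 of the 11 passed, and Nfatc1 was at log2 2.16 (adjusted p = 0.071).

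By the rule of largest change in the same direction in every tumour, the other genes named as higher were Kbtbd11 (log2 5.52 ± 0.29), Gask1b (5.34 ± 0.54), Adcy3 (3.90 ± 0.56), Cited2 (3.03 ± 0.29), Hyal1 (2.99 ± 0.27), Dusp4 (2.83 ± 0.38), Igf2r (2.76 ± 0.32), Plxnd1 (2.66 ± 0.33), Jdp2 (2.64 ± 0.31) and Agap1 (2.60 ± 0.31). Jdp2 is a transcription factor known in osteoclast formation, Hyal1 a lysosomal hyaluronidase, and Igf2r the receptor that sorts enzymes to the lysosome. Genes named as lower were Htr7 (-2.33 ± 0.45) and the cell-cycle or histone genes Cenpm (-2.59 ± 0.48), Hist1h2bn (-2.59 ± 0.42), Hist1h2ae (-2.45 ± 0.51) and Cdk1 (-2.32 ± 0.47). Against all other cells of these classes, at any depth, the 4 cell-cycle or histone genes did not pass (adjusted p between 0.365 and 0.569).

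Of the other proteases, Mmp12 and Timp2 were higher, at 1.45 ± 0.30 and 1.17 ± 0.22, the 2 of 17 on their list that could be tested. Mmp12 lost its call with 2 UMIs of each gene required (log2 -0.42, adjusted p = 0.748). Of 9 cathepsins and inhibitors, Ctsl and Cstb were higher and Ctsc and Ctsh lower, and Ctsl turned to lower (log2 -0.79) in the Other Myeloid kind set against macrophages. Gpnmb, Fabp5 and Lpl were higher among 8 genes of lipid-associated macrophages, with none lower. Of these genes, the Other Myeloid kind set against macrophages had Lpl higher and Spp1 and Cd36 lower. The triple-positive macrophages alone had none that passed. Plau was lower among the partners of collagen breakdown. None of the 4 members tested passed in edgeR, and 1 had an unadjusted p under 0.05: Mmp14 was at 0.80 ± 0.25 (adjusted p = 0.057), Mmp13 at 0.97 ± 0.46 (0.21), Mmp19 at -0.37 ± 0.42 (0.65) and Timp1 at -0.82 ± 0.58 (0.41).

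The 2 kinds of triple-positive cell gave different results when set apart, a split chosen after the data had been seen. The Other Myeloid kind against depth-matched macrophages, over 5 tumours, had 836 of 4598 genes (18.2%) higher and 930 (20.2%) lower, which also holds every difference between the 2 annotated classes and is a description of them. There Mmp14 was higher by 1.36 ± 0.19 in 5 of 5 tumours, and Mmp13 (-2.87 ± 0.48), Mmp19 (-2.93 ± 0.35) and Mmp12 (-3.94 ± 0.57) were lower in 5 of 5. Of 9 cathepsins and inhibitors 7 were lower (Ctsb, Ctsc, Ctsd, Ctsh, Ctsl, Ctss and Ctsz) and Cstb higher. Of 12 osteoclast genes that passed the same filter 11 were higher, including Itgb3 (5.60 ± 0.38) and Car2, carbonic anhydrase 2 (5.72 ± 0.59). Dcstamp and Mitf, higher in the fit of both classes, were not among them.

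The macrophage kind against depth-matched macrophages, also over 5 tumours, had 8 of 4688 genes (0.171%) higher and 5 (0.107%) lower in edgeR, with 246 and 175 at an unadjusted p under 0.05. None of 8 measured osteoclast genes passed in edgeR, and 1 of them, Tnfrsf11a at -0.80 ± 0.28, had an unadjusted p under 0.05 (0.0095). Nfatc1 was at -0.39 ± 0.22 (adjusted p = 0.68). Mmp12 (2.16 ± 0.30, adjusted p = 0.0032), Ctsl (1.06 ± 0.17, adjusted p = 0.0078) and Cited2 (1.63 ± 0.27, adjusted p = 0.0080) were higher in 5 of 5 tumours.

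**Figure D5:**
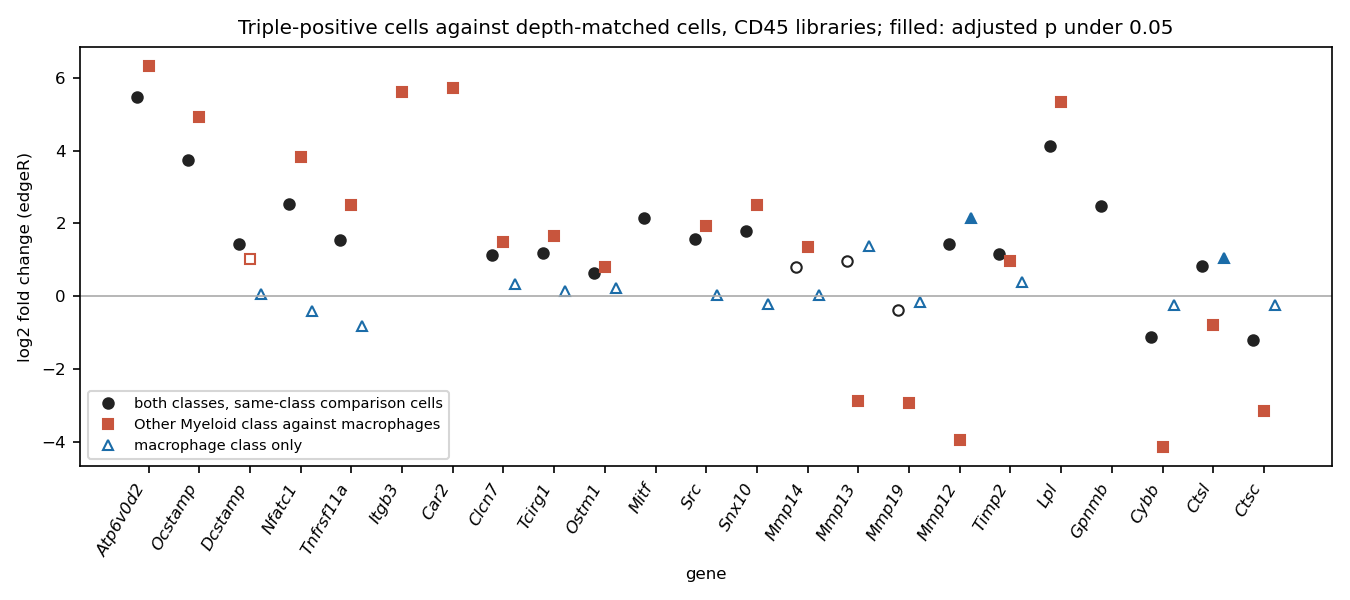
log2 fold change (edgeR) of osteoclast genes, members, other proteases and lipid-associated genes in triple-positive cells of the CD45 libraries against depth-matched cells, for both classes together (circles), the Other Myeloid kind (squares) and the macrophage kind (triangles); filled symbols passed an adjusted p of 0.05. Osteoclast genes lie above 0 for circles and squares, and near 0 or below for triangles; Mmp13, Mmp19 and Mmp12 are below 0 for squares.

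Genes whose levels ran most like each member were ranked by Pearson's r of log2(CPM + 10) over class sums of at least 50 cells, 48 in the Total or 41 in the CD45 libraries, which share tumours and libraries. This is a description over 8768 and 7675 genes. In the Total libraries Mmp2 ran with Islr (r = 0.983), Serpinf1 (0.981) and Ptx3 (0.980), Mmp3 with Mmp10 (0.939) and Cxcl5 (0.889), and Timp1 with Cryab (0.914), Fkbp14 (0.912) and Ednra (0.907). Mmp14 ran with Ttyh2 (0.925), Pofut2 (0.915) and Rassf8 (0.908), and Mmp13, less closely, with Sdc1 (0.791), Slc6a8 (0.788) and C4b (0.779). In the CD45 libraries Mmp8 ran with Sgms2 (0.974), Lrg1 (0.969) and Cd177 (0.967), Mmp9 with Mtus1 (0.843), C5ar2 (0.832) and Tlr6 (0.817), and Mmp19 with the arginase gene Arg1 (0.93), Fcrlb (0.922) and Pdpn (0.921). Ctsk ran with Slc9b2 (0.905), Atp6v0d2 (0.846) and Siglech (0.833), and Acp5 with Slc29a1 (0.842), Nt5dc2 (0.841) and Slc25a39 (0.837).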

How the data were processed

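The authors deposited a table of raw UMI counts per gene and cell for each of 12 libraries, with cells already filtered by limits not given in the sources used here. Cell Ranger and build mm10 are named in the submitters' processing notes, without version. Per the file headers, a second deposited table gives each cell's counts of UMIs and genes, its mitochondrial percent and fraction, a complexity score and the annotated classes, which were used as they stand. The labels' protocols name both a fixed-RNA kit and 3′ reagents.

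Doublets were scored per library by a Scrublet-type score (expected rate 6%; scanpy 1.11.5, numpy 2.4.6, scipy 1.17.1, pandas 2.3.3, Python 3.11.15; 2 simulated pairs per cell, 2000 variable genes, 30 components). They were called above 1 limit for all libraries, 0.246, the median of the limits found per library (0.204 to 0.287). By this 3452 of 115612 cells (2.99%) were left out. Counts were summed over class and library and scaled to CPM, with a pseudocount of 10 CPM in ratios. Poisson and Clopper-Pearson intervals at 95% cover counting error only; a count of 0 was given the limit of 3 counts. Triple-positive macrophages and Other Myeloid cells of the CD45 libraries were tested with edgeR 4.0.16 (R 4.3.3; filterByExpr, TMM, quasi-likelihood, tumour as block) against 5 depth-matched cells each, in tumours with at least 5 such cells. On counts simulated from that comparison (6313 genes) the test recovered 74% of genes changed by 1 on the log2 scale. It recovered 97% of those changed by 2, with 4 false calls. Both simulated arms took the means and dispersion (0.059) of the comparison cells, and only genes of at least 50 CPM were changed. The mix of 2 kinds among the triple-positive cells was not simulated. Each SE was worked back from the edgeR test, as the size of the log2 fold change over the square root of its F statistic. DESeq2 1.42.0, other filters, scalings, libraries and tumours left out in turn were tried as alternatives.

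Named were all members, the 12 highest and 6 lowest fold changes past an adjusted p of 0.05 that kept 1 direction in every tumour, list genes, and the 3 genes most like each member. Some genes that these rules name are not reported here. The members and lists were chosen with earlier results of these data known. Groups of 1 tumour allow no test between tumours, and classes come from clustering of the same cells, so that none was made between whole classes; the fit of triple-positive Other Myeloid cells against macrophages crosses 2 classes and is a description.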

Additional observations from a re-analysis of the deposited data

How the results depend on the processing

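No member past 2-fold between tumours changed sign under any alternative run, namely doublets kept, a minimum of 650 genes per cell, a pseudocount of 1 CPM, genes from 10 CPM or unfiltered, TMM or median-of-ratios scaling, and the Total libraries. The median log2 ratio of all genes with at least 50 CPM was, with TMM and median-of-ratios scaling, 0.48 and 0.31 for M over E (0.11 without) and 0.44 and 0.32 for EM3 over E (0.02 without) in tumour cells, 0.18 and 0.04 (-0.15) and 0.09 and 0.04 (-0.09) in fibroblasts, and -0.13 and -0.14 (0.17) for M over E in macrophages. The count of members past 2-fold between M and E in granulocytes was 2 in the Total libraries, against 1. The share of triple-positive myeloid cells was 0.0911% in E, 0.145% in EM3, and 0.0362% and 0.980% in M and the parental tumour with 2 UMIs of each gene, 0.0749%, 0.172%, 0.114% and 0.884% in these tumours after thinning, and 0.791% in EM2 in the Total library. With the main counts at 431 higher and 261 lower, the test of triple-positive cells gave 671 and 837 genes without a filter, 751 and 811 with 2 UMIs of each gene over 4 tumours, 146 and 54 in the Total libraries, 836 and 930 for triple-positive Other Myeloid cells against macrophages and 8 and 5 for macrophages, the last 2 splits being chosen after seeing the data. It gave 570 and 587 against all other cells, 394 and 282 with DESeq2, and 119 to 607 higher and 41 to 573 lower with 1 tumour left out. Without the replicate block, that is without the tumour as a block, 355 genes were higher and 122 lower. Shared with the 692 main calls were 147 of 200 in the Total libraries, 160 of 160 without the parental tumour and 11 of 13 in macrophages alone. In macrophages alone Nfatc1 (-0.39), Tnfrsf11a (-0.80) and Snx10 (-0.20) turned sign, as did Mmp13 (-2.87) in Other Myeloid cells and Mmp12 with 2 UMIs of each gene (-0.42) and in Other Myeloid cells (-3.94), and Ctsl there (-0.79). Where a setting did not itself change the cells or genes compared, the cause was not tested. Class sums from few cells, 52 fibroblasts in EM1 or 5 triple-positive Other Myeloid cells there, limit the precision.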
